A study of Mus musculus with 6 samples.

Results

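Histones are the proteins around which DNA is wound. H2A, H2B, H3 and H4 form the core of the nucleosome, and the linker histone H1 binds the DNA between cores. Replication-dependent histone genes lie in clusters, have no introns in their classical form and are transcribed mainly in S phase, and their mRNAs end in a stem-loop that the stem-loop binding protein SLBP recognises in place of a poly(A) tail. Variant histone genes, such as those for H3.3 and H2A.Z, give polyadenylated mRNAs outside S phase as well and supply the chromatin of cells that divide rarely, which most hepatocytes of an adult liver do. Histone genes were taken as the protein-coding rows of the expression table whose symbols follow the histone naming schemes, which gave 101 genes out of 21949 protein-coding rows. By symbol, 66 of them were replication-dependent and 35 were variants. The replication-dependent set held 6 H1, 18 H2A, 18 H2B, 12 H3 and 12 H4 genes. On the GRCm38.p6 assembly, 53 of the 66 lay on chromosome 13 within chr13:21715711-23934913 and 10 lay on chromosome 3 within chr3:96219885-96270192, with 2 on chromosome 11 and 1 on chromosome 6.

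Liver RNA was sequenced from 3 WT and 3 LKO mice, all C57BL/6 males aged 8 weeks and fasted for 24 h. WT mice carried Pak4 flox/flox. LKO mice carried Alb-Cre and Pak4 flox/flox, so that Pak4, a p21-activated kinase, was deleted where the albumin promoter drives Cre, in hepatocytes, while the RNA came from whole liver tissue with all its cell types. Each mouse gave 1 library. The labels name a library kit that selects poly(A) RNA, whereas the study's methods describe removal of ribosomal RNA from total RNA. Which of them was used bears on how mRNAs without a poly(A) tail were captured, and it could not be settled from the sources used here.

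Pak4 was counted 268, 210 and 271 times in WT mice 1 to 3 and 85, 52 and 149 times in LKO mice 1 to 3. Its log2 fold change was -0.71 (SE 0.31) with an adjusted p of 0.101 by edgeR's quasi-likelihood test, and without LKO mouse 3 it was -1.08 with an adjusted p of 0.0152. With total counts it was -1.54 and passed. On the TMM scale LKO mouse 3, at 3.222 counts-per-million (CPM), lay within the WT range of 3.209 to 4.097. Total counts were 45934632 to 59576437 per mouse. The TMM scaling factors (trimmed mean of M-values, which set the median gene near no change) were 1.28 to 1.43 in WT and 0.639 to 0.816 in LKO mice, so the directions below are relative to this scaling. The median log2 fold change of all 18636 genes tested was -0.04 with TMM and -0.90 when counts were divided by the total alone. The RNAs 7SL and 7SK, which like replication-dependent histone mRNAs carry no poly(A) tail, took 4.81% ± 0.376 and 0.567% ± 0.0588 of all counts in WT and 14.2% ± 2.60 and 2.46% ± 0.152 in LKO mice (SD, n = 3). Their part in the histone values was not tested. Among marker genes, 4 of 8 hepatocyte, 4 of 9 Kupffer cell and macrophage, 4 of 6 endothelial, 3 of 6 stellate and 2 of 2 neutrophil genes tested were higher in LKO livers, while 1 of 6 lymphocyte genes and 1 hepatocyte gene were lower and the 3 cholangiocyte genes did not pass the test. With total counts, the genes higher and lower were 4 and 2 for hepatocytes, 2 and 2 for Kupffer cells and macrophages, 2 and 2 for endothelial, 1 and 2 for stellate cells and 1 and 0 for neutrophils. Over all genes tested, 19.6% were called higher and 20.5% lower with TMM, and 6.26% and 51.4% with total counts. Of 6 erythroid genes, 2 were higher and 1 lower, and their summed level per total counts was 273 to 438 CPM in WT and 718 to 1269 CPM in LKO mice. The part of these cell types in the histone results was not tested.

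The stem-loop that sets replication-dependent histone mRNAs apart was looked for in the GENCODE M21 transcripts (GRCm38) as a stem of 6 base pairs that starts with GG, closed by a loop of 4 bases that starts with T, in the first 150 bases after the stop codon. It is shown because it is the feature known to set the 2 classes apart, which were divided here by symbol, and because the families differ in it. Stems are in capitals and the loop and 5 flanking bases on each side are in lower case.
H1f2 (chr13:23739507-23739532, plus strand): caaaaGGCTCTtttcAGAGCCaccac
H2bc14 (chr13:21722501-21722526, plus strand): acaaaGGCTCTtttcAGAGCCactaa
H2ac20 (chr3:96220413-96220438, minus strand): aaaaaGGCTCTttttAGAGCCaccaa
H4c3 (chr13:23698084-23698109, minus strand): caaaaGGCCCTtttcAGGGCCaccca
H4c14 (chr3:96262934-96262959, minus strand): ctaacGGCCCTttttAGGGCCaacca
H4c2 (chr13:23757361-23757386, plus strand): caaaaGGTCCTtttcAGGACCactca
H2afx (chr9:44335235-44335260, plus strand): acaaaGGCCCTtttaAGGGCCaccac

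A stem-loop of this form was found in 45 of the 66 replication-dependent genes, 21 to 58 bases after the stop codon. In 17 of the other genes the gene model ended within 60 bases of the stop codon, so that the element could not be seen. The rest, H2bc4, H2bc21, Hist1h2bq and Hist1h2br, had 742 to 2192 bases annotated after the stop codon. No stem-loop of this form stood in the first 150 of them. Where at least 60 bases were annotated, 43 of 47 replication-dependent genes (91.5%) and 2 of 22 variant genes (9.09%) held it, against 62 of 42264 protein-coding transcripts (0.147%). The 2 variants were H2afx and H2bfm. The stem that starts with GGCTCT was shared by 34 genes of the H1, H2A, H2B and H3 families, the stem that starts with GGCCCT by 9 H4 genes, and the stem that starts with GGTCCT by H4c2 and H4c11. Of the genes tested with these stems, 5 were higher and 20 lower among 32 with GGCTCT, and 5 higher and 1 lower among 9 with GGCCCT. These are calls with TMM, beside 19.6% of all genes called higher and 20.5% lower. The share called higher with GGCTCT lay near that background. With total counts or the length trend removed, 1 of the 12 H4 genes tested was higher and 3 were lower. Since the stem and the family go together, the 2 cannot be told apart in these counts. Calls also differed with the length of the gene model. Of 21 replication-dependent genes tested whose model ran at least 100 bases past the stem-loop, 7 were higher and 7 lower. Of 22 whose model ended sooner, 3 were higher and 14 lower, beside the same shares of all genes. The 7 higher genes with the longer model were H1f2, H1f4, H4c1, H4c3, H4c9, H4c14 and H4f16, all H1 or H4 genes. The 3 with the shorter model were the H2A genes H2ac18, H2ac19 and H2ac20. Family and model length thus cannot be told apart in these counts either. The part of the gene model's length in the calls was not tested.

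The comparison of LKO with WT livers called replication-dependent genes in both directions, with 11 of 17 H2A, 10 of 17 H2B and 6 of 12 H3 genes lower and 6 of 12 H4 genes higher with TMM, and called 1 variant. With total counts or the length trend removed, 1 H4 gene was higher and 3 were lower. Of the 63 replication-dependent genes with at most 1 zero count among the mice, 12 were higher and 30 lower in LKO livers at an adjusted p under 0.05, and 21 did not pass. Over all genes tested, 19.6% were called higher, 20.5% lower and 40.1% in either direction. The share of replication-dependent genes called higher lay near that background, and the share called lower was above it. Their median log2 fold change was -0.73. Of 11 variants tested, 0 were higher and 1 was lower, with a median of 0.07, and no variant was higher at an unadjusted p under 0.05, by DESeq2 or by edgeR's exact test either. With total counts in place of TMM, 6.26% of all genes were called higher and 51.4% lower, and the counts were 4 higher and 44 lower of the 63 replication-dependent genes and 0 higher and 7 lower of the 11 variants. When each library's trend of counts with gene length was removed, 20.2% of all genes were called higher and 18.4% lower, and 5 replication-dependent genes were higher and 40 lower. In RNA from whole tissue, fewer cells in S phase and less RNA per cell cannot be told apart. Of the 43 members called, 30 kept the call whichever mouse was left out.

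**Figure D1:**
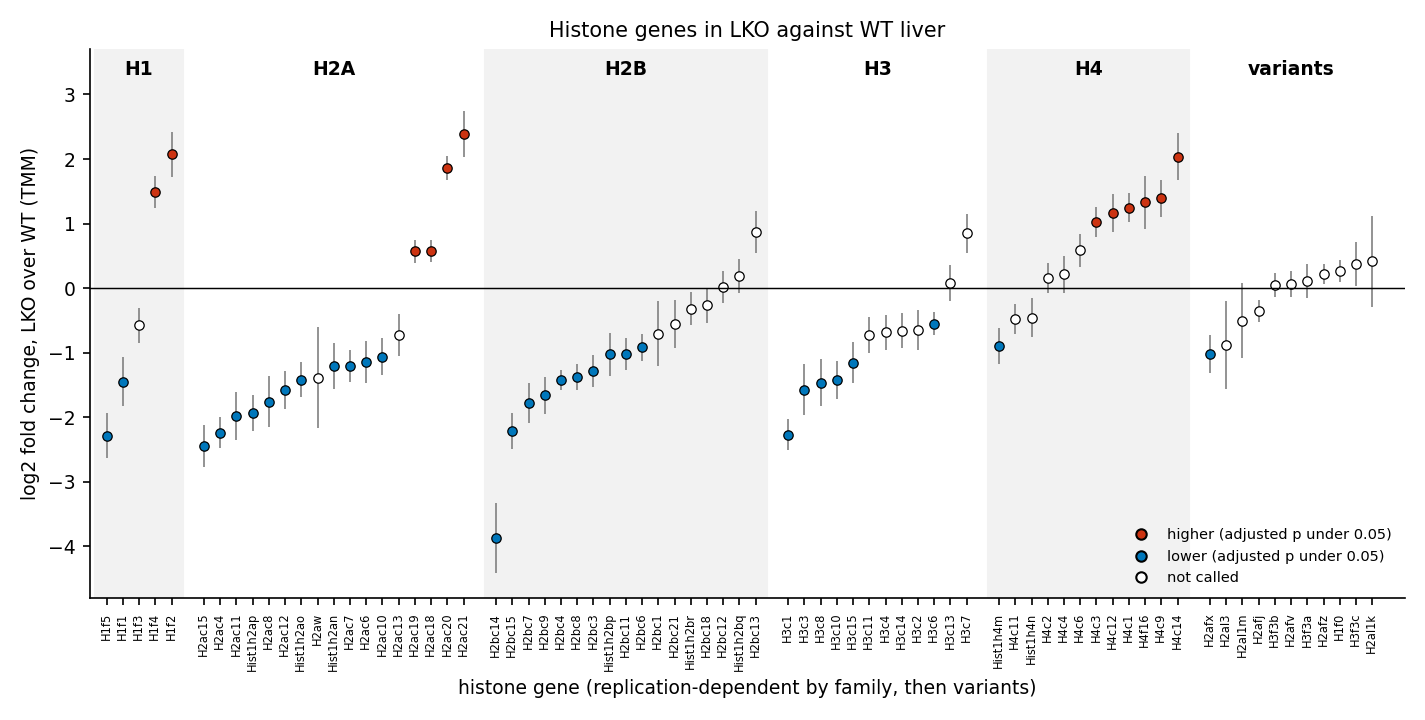
Log2 fold change of LKO over WT livers (y axis, TMM scaling) for each of the 63 replication-dependent and 11 variant histone genes tested, ordered by value within each family along the x axis. Points are the fitted values, vertical lines are 1 SE, and coloured points passed the test (red higher, blue lower). H2B and H3 genes had no member called higher, H4 genes had 6 higher and 1 lower, and H2A genes had 4 higher and 11 lower.

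Members outside the test were few among replication-dependent genes and many among variants. Of the former, H1f6, an H1 gene of the testis, had 4 counts over the 6 mice, H2ac1 had 0 and H2bu2 had 25. Among the variants, 21 had no count in any mouse, most of them H2A variants of the male germ line such as the H2al genes, and H1f10, H2ap and H3f4 had 10, 10 and 3 counts in all. The counts of called members are given over the genes tested.

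The linker histone genes moved apart from each other. H1f2, the replication-dependent gene with the highest mean level over the 6 mice, stood at 40.1, 39.6 and 40.8 TMM-scaled CPM in WT mice 1 to 3, against 104, 126 and 276 in LKO mice 1 to 3. Every LKO mouse lay above every WT mouse, and LKO mouse 3 stood far above the other 2. The log2 fold change was 2.07 (SE 0.35, adjusted p 0.00224), and it was 1.51 without LKO mouse 3. H1f4 rose as well, from 19.4, 25.05 and 25.02 CPM in the WT mice to 48.6, 55.2 and 90.7 CPM in the LKO mice (log2 fold change 1.48, SE 0.25, adjusted p 0.00225). Both remained called with the length trend removed, at 1.53 and 0.98, whereas with total counts only H1f2 did, and H1f4 was at 0.63 with an adjusted p of 0.0746. In TPM, which is corrected for gene length, H1f2 overlapped between genotypes, at 104.0 to 114.6 in WT and 94.85 to 290.2 in LKO mice. The mean TPM of H1f4 was 58.3 in WT and 57.5 in LKO mice. In GENCODE, H1f4 overlaps H2bc6 on the same strand, a gene that was called lower (log2 fold change -0.92). How reads in that overlap were divided is not known.

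The other H1 genes did not follow. H1f5 fell from 2.74, 4.62 and 2.39 CPM in the WT mice to 0.522, 0.717 and 0.757 CPM in the LKO mice, without overlap (log2 fold change -2.28, SE 0.35, adjusted p 0.0015). H1f1 fell with a log2 fold change of -1.45 (adjusted p 0.0162), though without WT mouse 1 the adjusted p was 0.0516. H1f3 was at 15.5, 19.4 and 12.7 CPM in the WT mice, and the LKO mice had 8.29, 8.52 and 15.2 CPM. LKO mouse 3 lay within the WT range, and the log2 fold change of -0.57 did not pass (adjusted p 0.127), whereas without that mouse it was -0.92 with an adjusted p of 0.0119. Within the family, H1f2 made up 45.7% ± 3.37 of the H1 counts in WT and 66.9% ± 4.42 in LKO mice.

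The H2A genes divided by chromosome. All 4 H2A genes on chromosome 3, H2ac18 to H2ac21, were higher in LKO livers, and of the 12 tested on chromosome 13, 11 were lower and 0 higher (0 also at an unadjusted p under 0.05, by DESeq2 and by edgeR's exact test). The division was noticed in these values and is given without a test, beside 19.6% of all genes called higher and 20.5% lower. H2ac20 was at 2.78, 3.44 and 3.61 CPM in the WT mice, and the LKO mice had 12.04, 10.8 and 12.9 CPM, so that all LKO mice lay well above all WT mice. Its log2 fold change was 1.86 (SE 0.18, adjusted p 0.000333), and it stayed called with the length trend removed (1.18) and with total counts (1.01). H2ac21 rose from 0.483, 0.321 and 0.272 CPM to 2.11, 2.18 and 1.41 CPM, again without overlap (log2 fold change 2.39, SE 0.36, adjusted p 0.00142).

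H2ac18 and H2ac19 have identical coding sequences, so their reads cannot be assigned to one of them with certainty. H2ac18 was at 14.0, 10.8 and 12.3 CPM in the WT mice, and the LKO mice had 18.3, 15.7 and 21.1 CPM, and H2ac19 differed from it by at most 0.4 CPM in the same mouse. The log2 fold changes were 0.57 in both (adjusted p 0.0291). They turned to -0.28 with total counts and to -0.09 and -0.07 with the length trend removed, and in neither case did they pass. Both lost the call without each of WT mice 2 and 3 and LKO mice 1 and 3 in turn, at 0.46 to 0.57. In GENCODE, antisense genes overlap H2ac18, H2ac19 and H2ac21, and also H2bc18 and H3c13 on chromosome 3, which were not called. Opposite-strand miRNA genes overlap H2ac18, H2ac19, H2ac20 and each of the 12 H2A genes tested on chromosome 13. Since the use of strand in counting is not stated, reads of these genes cannot be told apart from those of their opposite-strand partners.

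On chromosome 13, H2ac15 fell from 2.52, 2.90 and 1.98 CPM in the WT mice to 0.341, 0.430 and 0.584 CPM in the LKO mice (log2 fold change -2.44, SE 0.33, adjusted p 0.000887). H2ac4 fell by 2.24 on the log2 scale. The values of both genotypes stood apart in each of these genes. The only gene of the 12 that did not pass was H2ac13, at -0.73 (adjusted p 0.106), and the median of the 12 was -1.50. The ratio of summed counts of the chromosome 3 to the chromosome 13 H2A genes, which does not depend on the scaling between libraries, was 1.34, 1.03 and 1.36 in WT and 7.56, 5.31 and 6.72 in LKO mice. For H2ac20 and H2ac21 alone over the chromosome 13 genes it was 0.139, 0.152 and 0.184 in WT and 2.09, 1.54 and 1.70 in LKO mice. H2ac20 supplied 6.12% ± 1.05 of replication-dependent H2A counts in WT and 20.04% ± 0.227 in LKO mice.

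No H2B gene was higher and 10 of 17 were lower, beside 19.6% of all genes called higher and 20.5% lower. At an unadjusted p under 0.05, H2bc13 alone was higher, and DESeq2 and edgeR's exact test each called 1 H2B gene higher. H2bc4, which held 55.8% ± 1.27 of replication-dependent H2B counts in WT livers, fell from 85.8, 74.2 and 70.9 CPM in the WT mice to 30.1, 30.6 and 25.3 CPM in the LKO mice. The genotypes were well apart (log2 fold change -1.42, SE 0.15, adjusted p 0.000386), and the log2 fold change was -2.00 with the length trend removed. Per length it went from 209.5 ± 25.8 to 26.9 ± 3.73 TPM, the transcript measure that is corrected for gene length. TPM fell for most genes, with 453 higher and 13322 lower of 18636 by limma on log2(TPM + 1). H2bc14 had the largest fall of any member tested, from 179, 144 and 123 counts in WT to 1, 8 and 9 counts in LKO mice. The log2 fold change of H2bc14 was -3.87 (SE 0.55, adjusted p 0.0011) and ranged from -4.26 to -3.34 when 1 mouse was left out. H2bc15 fell by 2.21 and H2bc8 by 1.37 on the log2 scale, while H2bc12 did not pass (0.021, adjusted p 0.952, and -0.84 with total counts).

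Many H2A and H2B genes are arranged head to head, with starts close together. There were 12 such pairs with 163 to 280 bases between the RefSeq starts, and both genes were tested in 11 of them. In 6 pairs both genes were lower, in 4 pairs 1 gene was called and the other was not, and in 1 pair neither was called. No pair was called in opposite directions. The H2A gene had the lower log2 fold change in 8 of the 11 pairs, by up to 1.61 in Hist1h2ap and Hist1h2br. The exceptions were H2ac6 with H2bc4, H2ac7 with H2bc7, and the pair on chromosome 3, in which H2ac20 was 2.42 above H2bc21 (log2 fold change of H2bc21 -0.55, adjusted p 0.269). Differences within a pair were not tested.

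The upstream bases of 3 members are given, of H2ac20 as an H2A gene that rose under each of the 3 count scalings, of H2bc14 as the member with the largest fall and of H1f2 as the linker gene that rose most. Capitals mark, on either strand, the letters TATAAA of the TATA box. They also mark CCAAT, a box common in promoters, and the octamer ATTTGCAT known from H2B promoters, and in these stretches no matches overlap. The stretch of H2ac20 is the whole interval between it and H2bc21, 191 bases. It has no octamer, while the full window of 250 bases, which reaches into H2bc21, has 1.
H2ac20 (chr3:96220881-96221071, minus strand): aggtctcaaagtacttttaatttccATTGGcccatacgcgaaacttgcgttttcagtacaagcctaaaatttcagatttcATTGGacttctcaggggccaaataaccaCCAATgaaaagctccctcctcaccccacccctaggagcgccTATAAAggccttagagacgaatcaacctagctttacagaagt
H2bc14 (chr13:21721794-21722043, plus strand): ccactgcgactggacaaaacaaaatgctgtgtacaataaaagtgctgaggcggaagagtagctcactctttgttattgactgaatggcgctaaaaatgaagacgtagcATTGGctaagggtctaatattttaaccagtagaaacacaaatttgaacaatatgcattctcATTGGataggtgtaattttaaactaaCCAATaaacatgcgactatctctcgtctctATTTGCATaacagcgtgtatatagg
H1f2 (chr13:23738557-23738806, plus strand): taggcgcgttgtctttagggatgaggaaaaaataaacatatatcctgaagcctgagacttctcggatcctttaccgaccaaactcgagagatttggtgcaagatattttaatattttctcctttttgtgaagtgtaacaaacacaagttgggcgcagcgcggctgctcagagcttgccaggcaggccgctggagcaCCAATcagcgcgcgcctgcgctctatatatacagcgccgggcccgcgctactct

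Promoter sequences (RefSeq, GRCm38.p6) were at hand for 95 of the 101 genes, without H2afx, H2bc21, H2bc4, H3c1, H3c7 and H4c14. In the full 250 bases before the start, which in close head-to-head pairs reach into the partner gene, CCAAT or its reverse complement stood in 51 of 61 replication-dependent genes (83.6%), in 12 of 34 variants (35.3%) and in 33.8% of 32851 promoters. All 6 H1, 18 H2A and 16 H2B promoters held it, as did 8 of 10 H3 promoters and 3 of 11 H4 promoters. TATAAA stood in 47.5% of replication-dependent promoters, in 8.82% of variants and in 12.4% of all. ATTTGCAT stood in 6 of 16 H2B and 7 of 18 H2A promoters and in none of the 27 promoters of the other replication-dependent families, against 1.6% of all promoters. The H2B genes tested that held it had a median log2 fold change of -0.995, and those without it had -1.02. For TATAAA the median was -1.28 in the 7 H2B genes tested that held it and -0.62 in the 8 without it. Neither split was tested. These matches are descriptions of the letters in this window.

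H3 genes also fell or did not pass, with 6 of 12 lower, beside 20.5% of all genes, and a median of -0.71. H3c1 fell from 5.51, 4.92 and 4.14 CPM in the WT mice to 0.841, 1.06 and 1.12 CPM in the LKO mice, without overlap (log2 fold change -2.27, SE 0.24, adjusted p 0.000418). H3c7 went against the family. It was at 7.01, 8.77 and 5.05 CPM in the WT mice, and the LKO mice had 8.97, 17.9 and 10.6 CPM, so the genotypes did not overlap but lay close. Its log2 fold change of 0.85 had an adjusted p of 0.0535. Without LKO mouse 1 it was called at 1.04, DESeq2 and edgeR's exact test called it too, and with total counts it was -0.07.

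H4 genes were called higher more often than lower, with 6 of 12 higher, 1 lower and a median of 0.81. The all-gene shares beside these were 19.6% higher and 20.5% lower. H4c14, on chromosome 3, was at 2.43, 1.74 and 1.497 CPM in the WT mice, and the LKO mice had 4.23, 8.69 and 10.4 CPM. All LKO mice lay above all WT mice, and the log2 fold change was 2.04 (SE 0.36, adjusted p 0.00281). In TPM, H4c14 overlapped between genotypes, at 7.164 to 12.35 in WT and 8.051 to 20.64 in LKO mice. The other 5 H4 genes called higher were H4c9, H4c1, H4c12 and H4c3 on chromosome 13 and H4f16 on chromosome 6, with log2 fold changes of 1.03 to 1.39. H4c12 lost the call without WT mouse 3 (1.01), and H4f16 without WT mouse 2 (1.195), WT mouse 3 (1.12) or LKO mouse 3 (0.82). H4c3 went from 15.6, 12.9 and 11.6 CPM to 22.1, 22.3 and 37.2 CPM. These rises depended on the scaling. With the length trend removed or with total counts, H4c14 alone stayed called higher, 3 H4 genes were called lower, and the family's median was 0.17 and -0.05.

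Within the H4 family the genes spread over a wide range. Hist1h4m fell by 0.90 on the log2 scale (SE 0.28, adjusted p 0.0319), a call that was lost without any of WT mice 1, 2 and 3 and LKO mice 1 and 2 in turn, at -0.99 to -0.66. Hist1h4n, whose coding sequence is identical to that of Hist1h4m, did not pass (-0.46, adjusted p 0.256), and without LKO mouse 3 it was -0.87 with an adjusted p of 0.0147. H4c4, with 20.4, 20.98 and 14.7 CPM in the WT mice and 15.97, 16.7 and 32.4 CPM in the LKO mice, overlapped between genotypes, as did H4c6. Their log2 fold changes were 0.22 and 0.59 (adjusted p 0.579 and 0.101), and LKO mouse 3 was the highest in both.

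Copies of a family are so alike that single genes should be read with care. Among the replication-dependent genes the closest other member of the family had a median identity of 98.97% over the coding bases for H2A, 98.28% for H2B, 98.77% for H3 and 97.1% for H4, and 81.5% for H1. In 8 of the 66 genes it was identical. Sums over a family do not depend on how reads were divided among the copies summed, provided that each read was counted once, which is not stated. They leave out copies outside the naming rule, such as H2c8, whose older symbol is that of an H4 gene. Ratios of such sums within a library do not depend on the scaling between libraries.

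The ratio of summed H4 to summed H3 counts was 1.97, 1.87 and 1.97 in WT and 3.697, 2.695 and 5.52 in LKO mice. H4 over H2B was 0.639, 0.708 and 0.567 in WT and 1.63, 1.73 and 2.87 in LKO mice. H1 over H3 was 1.72, 1.83 and 2.37 in WT and 5.87, 4.96 and 11.8 in LKO mice. None of these 3 ratios overlapped between genotypes, and LKO mouse 3 was the highest in each, so that without it the LKO to WT ratios were 1.65, 2.63 and 2.74 in place of 2.05, 3.250 and 3.82. H4 over H2A overlapped, at 1.73, 1.80 and 1.37 in WT and 1.73, 1.95 and 2.76 in LKO mice.

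**Figure D2:**
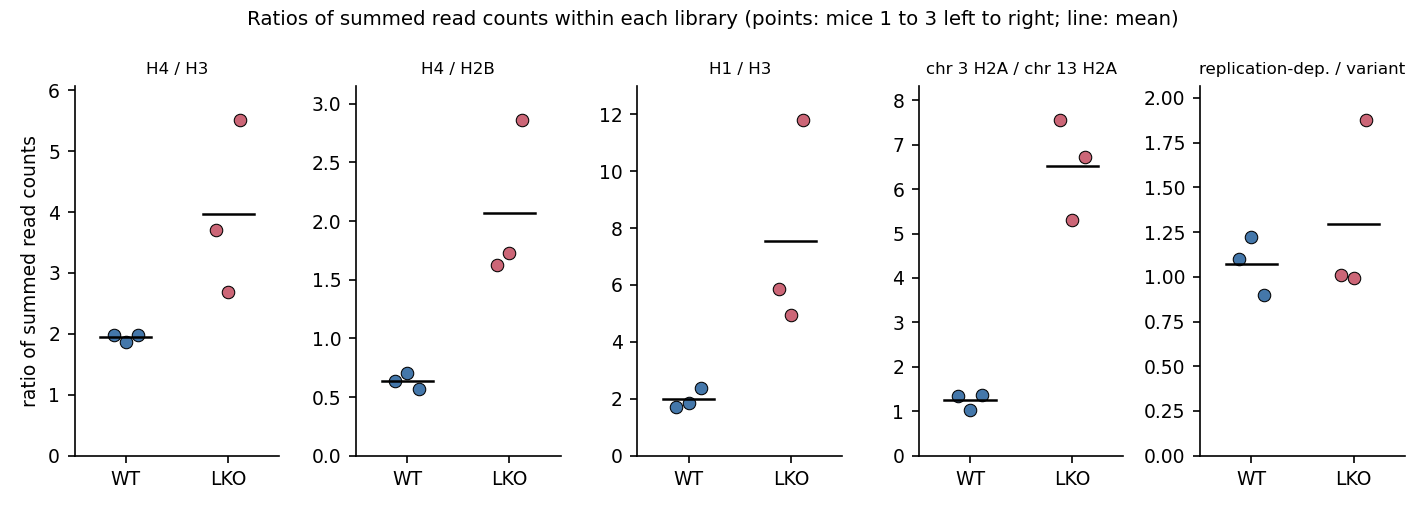
Ratios of summed read counts (y axis, no unit, separate scale in each panel) in the 3 WT and 3 LKO mice, with points for mice 1 to 3 from left to right and a line at the mean. H4 over H3, H4 over H2B, H1 over H3 and chromosome 3 over chromosome 13 H2A genes were higher in every LKO mouse than in any WT mouse, while replication-dependent over variant genes overlapped at 0.896 to 1.22 in WT and 0.992 to 1.88 in LKO mice.

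The balance between the 2 classes did not separate the genotypes. Replication-dependent over variant counts were 1.102, 1.22 and 0.896 in WT and 1.01, 0.992 and 1.88 in LKO mice. LKO mouse 3 lay above all others, and H1 genes held 53.1% of its replication-dependent counts. Without it the ratio of the LKO to the WT mean went from 1.21 to 0.934. The make-up of the replication-dependent pool did separate them. Per length, H1 genes made up 16.2% ± 1.58 of its TPM in WT and 35.3% ± 5.96 in LKO mice, H2B genes 29.8% ± 1.41 and 11.6% ± 2.67, H3 genes 10.2% ± 0.963 and 5.53% ± 1.62, and H4 genes 29.9% ± 2.12 and 34.9% ± 1.16 (SD, n = 3), all without overlap. H2A genes overlapped, at 13.9% ± 1.01 and 12.7% ± 2.80.

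**Figure D3:**
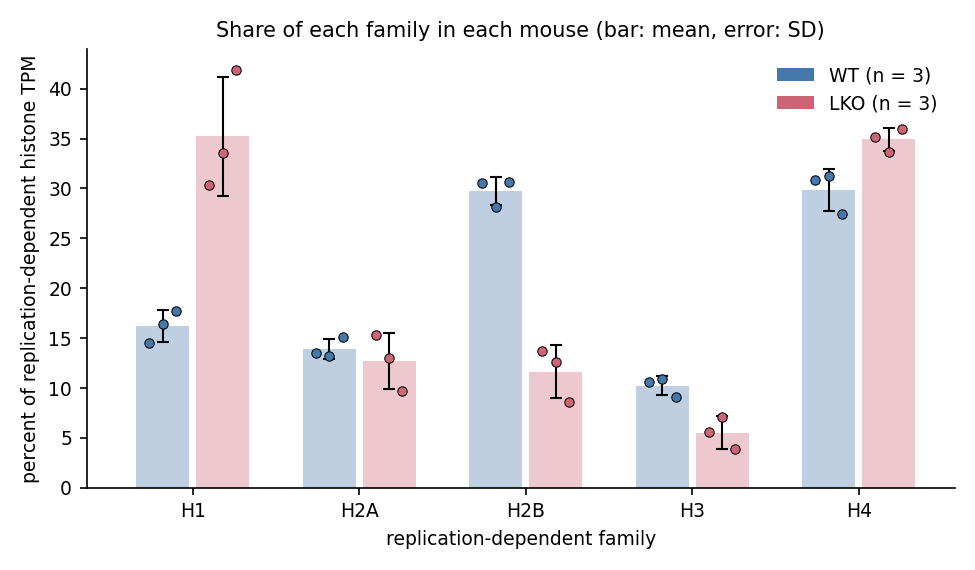
Percent of the summed TPM of the 66 replication-dependent histone genes that each family held (y axis) in 3 WT and 3 LKO mice. Points are mice, bars start at 0 and show the mean, and error bars are 1 SD. The H1 share was 14.5% to 17.7% in WT and 30.3% to 41.9% in LKO mice and the H2B share lay at 8.61% to 13.7% there, against 28.1% to 30.7% in WT mice.

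The variants included some of the most abundant histone mRNAs of these livers. Per length, H3f3a, which with H3f3b encodes H3.3, was at 224 ± 19.04 TPM in WT, next to H2bc4 at 209.5 ± 25.8 TPM, a difference within their spread. On the TMM scale, H3f3a was at 136, 114 and 121 CPM in the WT mice, and the LKO mice had 149, 173 and 80.3 CPM, and H3f3b at 139, 122 and 155 CPM and at 114, 142 and 175 CPM. Both overlapped between genotypes, with log2 fold changes of 0.11 and 0.05 (adjusted p 0.756 and 0.856). LKO mouse 3 was the lowest of all mice for H3f3a and the highest for H3f3b.

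H2afz and H2afv, which encode H2A.Z proteins, and H1f0, a linker histone of cells that have left the cycle, also overlapped. H2afz was at 51.0, 54.2 and 51.0 CPM in the WT mice, and the LKO mice had 66.6, 66.9 and 48.5 CPM (log2 fold change 0.22, adjusted p 0.312). The log2 fold changes of H1f0 and H2afv were 0.26 and 0.07 (adjusted p 0.253 and 0.81). H2afj was at 16.6, 12.2 and 13.2 CPM in the WT mice, and the LKO mice had 11.7, 11.3 and 9.93 CPM, without overlap, and its log2 fold change of -0.35 did not pass (adjusted p 0.14). H3f3c, H2al3, H2al1m and H2al1k were low, at 1 to 151 counts in a mouse, and did not pass. With total counts, 7 of the 11 variants were called lower and the median was -0.79, next to -0.90 over all genes.

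The exception among the variants was H2afx, which encodes the H2A.X that is phosphorylated at DNA breaks, and which was also the only variant tested that held a stem-loop. It was at 2.79, 2.40 and 3.23 CPM in the WT mice, and the LKO mice had 1.07, 1.18 and 1.88 CPM, without overlap. The log2 fold change was -1.02 (SE 0.30, adjusted p 0.0248). The call was lost without WT mouse 1, WT mouse 3, LKO mouse 1 or LKO mouse 2, at -1.02 to -0.87, and it held with the length trend removed and with total counts.

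**Figure D4:**
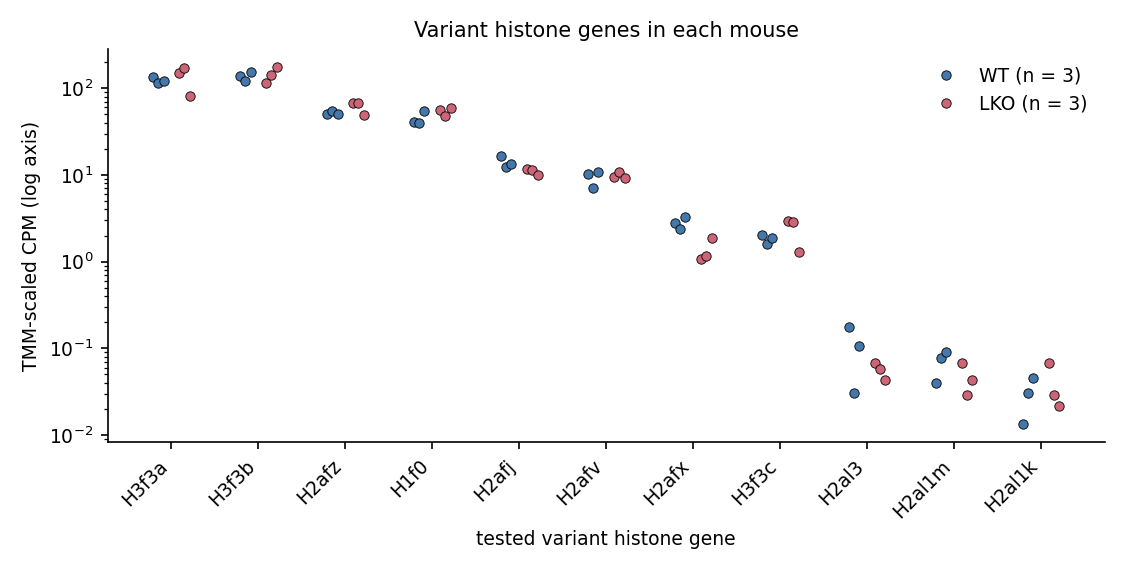
TMM-scaled CPM (y axis, log scale) of the 11 variant histone genes tested, ordered by mean TPM in WT livers along the x axis, in each of 3 WT and 3 LKO mice. The genotypes overlap in every variant but H2afj, which did not pass the test, and H2afx, at 2.40 to 3.23 in WT and 1.07 to 1.88 in LKO mice.

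How far the directions depend on the scaling differed between the families. With TMM, the median log2 fold changes were -0.57 for H1, -1.21 for H2A, -1.02 for H2B, -0.71 for H3, 0.81 for H4 and 0.07 for variants. With the length trend removed they were -1.08, -1.90, -1.71, -1.39, 0.17 and -0.19, and with total counts -1.43, -2.08, -1.88, -1.57, -0.05 and -0.79. Under all 3, H4 had the highest median of the replication-dependent families and H2A the lowest. H1f2, H2ac20, H2ac21 and H4c14 were the members called higher under each of them.

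**Figure D5:**
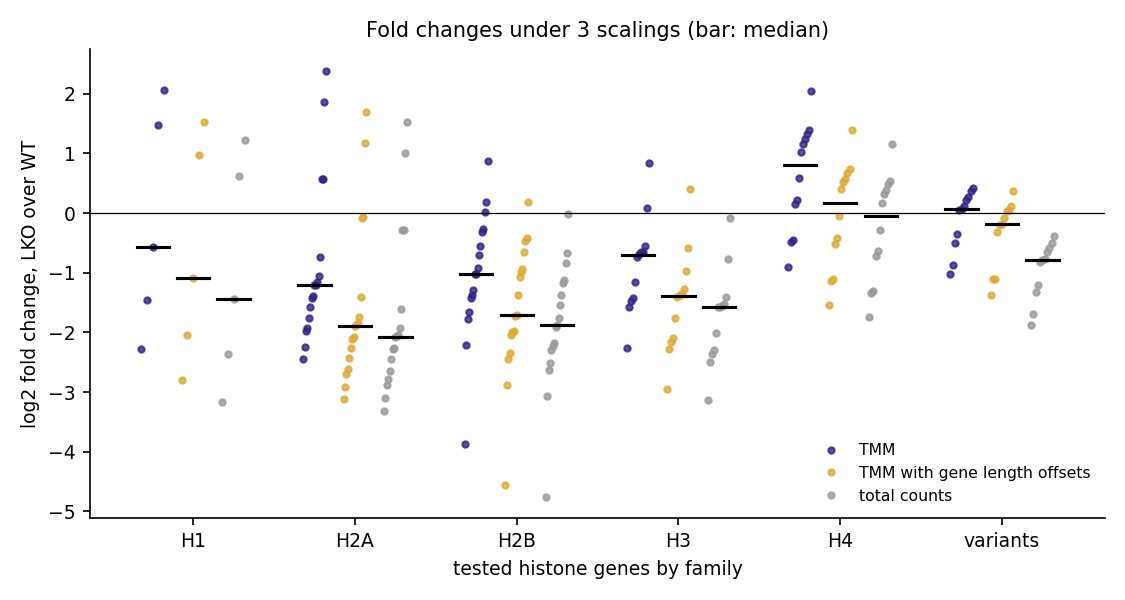
Log2 fold changes of LKO over WT livers (y axis) of the histone genes tested, by family and for variants, under TMM, TMM with the gene length trend of each library removed, and total counts. Points are genes and black bars medians. Medians move down from left to right in each group, from 0.81 to -0.05 in H4 and from 0.07 to -0.79 in variants, while the order of the replication-dependent families changes little.

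The genes that make and mature histone mRNAs were taken from a list of 17, of which 16 were tested. They were 1 higher, 7 lower and 8 not called, with a median of -0.64, beside 19.6% of all genes called higher and 20.5% lower. Slbp, which encodes the stem-loop binding protein, was counted 1464, 1268 and 1225 times in WT and 363, 336 and 500 times in LKO mice, which did not overlap (log2 fold change -1.003, SE 0.16, adjusted p 0.00163). Genes of the cleavage machinery fell with it, Cpsf3, the nuclease, by 0.96, Sympk by 0.79 and Cstf2 by 1.02 on the log2 scale, as did Mif4gd (by 1.01), whose product links SLBP to translation, and Upf1 (by 0.70) and Tut7 (by 0.73), which act in histone mRNA decay. Casp8ap2, which encodes a protein of the histone locus body, rose by 0.53 (adjusted p 0.0299), a call lost without WT mouse 1, WT mouse 3 or LKO mouse 2. Npat, which drives histone transcription, did not pass (0.13, adjusted p 0.646). With total counts 0 were higher and 14 lower, beside 6.26% and 51.4% of all genes.

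Of 29 histone chaperone and deposition genes, 4 were higher, 12 lower and 13 not called, with a median of -0.34. The shares over all genes were 19.6% higher and 20.5% lower. The subunits of the replication-coupled chaperone CAF-1, Chaf1a and Chaf1b, fell by 2.71 and 1.61 on the log2 scale (adjusted p 0.00133 and 0.0145), and Asf1b, which hands H3 and H4 to it, fell by 3.20 (adjusted p 0.0123). Asf1a, the other ASF1 gene, was at 668, 463 and 657 counts in WT and 621, 524 and 553 counts in LKO mice, which with TMM was a rise of 0.66 (adjusted p 0.021). Nasp, a chaperone of H3 and H4, and Hat1, which acetylates new H4, rose by 0.77 and 0.56, and Tlk2, a kinase of ASF1, by 0.60. Hjurp, the chaperone of the centromeric H3 variant, fell by 1.60, Hira of the H3.3 pathway by 0.99, and Srcap and Ep400, which exchange H2A.Z, by 0.88 and 0.73. Ssrp1, a subunit of the chaperone FACT, fell by 0.56 (adjusted p 0.0238) and Ubn1, a partner of HIRA, by 0.54 (adjusted p 0.0406). Without WT mouse 1 or WT mouse 2, 1 gene of the list was higher, and without WT mouse 3 or LKO mouse 2, 2 were. With total counts 0 were higher and 25 lower, beside 6.26% and 51.4% of all genes.

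Of 35 S phase and mitosis genes, 25 were lower, 3 higher and 7 not called, with a median of -1.95, beside 20.5% of all genes called lower and 19.6% higher. Mcm4, Mcm5, Mcm6 and Mcm7, subunits of the replicative helicase, fell by 1.95, 3.10, 3.39 and 1.22 on the log2 scale, and Rrm1 and Rrm2, the subunits of ribonucleotide reductase, by 1.44 and 2.32. Tk1, a thymidine kinase, fell by 2.11, and Cdk2, the kinase that works with cyclin E, fell by 2.17. Top2a fell by 2.14 and Mki67, a marker of cycling cells, by 1.69 on the log2 scale. Mki67 counts were 1440, 1362 and 1327 in WT and 191, 291 and 280 in LKO mice. Pcna did not pass (-0.10, adjusted p 0.64), and Gins1 and Rfc4 were among the genes called higher, at 1.43 and 0.82, which with total counts did not pass. What these genes share with the fall of H2A, H2B and H3 genes was not tested.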

How the data were processed

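The authors extracted liver RNA, made 1 library per mouse and aligned reads to mm10. Per the labels their tools were bcl2fastq 2.20.0, FastQC 0.11.7, HISAT2 2.1.0, Bowtie2 2.3.4.1 and StringTie 2.1.3b. The deposited table of 45777 genes holds read counts that were not normalized, whole numbers that StringTie derives from coverage, and FPKM and TPM. The authors scaled FPKM by gene length and depth, and TPM by the authors have 1 sum per mouse. Total counts were 45934632 to 59576437 per mouse. The kits named keep strand, and the methods state a minimum RNA integrity. How multi-mapped reads and strand were used in counting, and the integrity of each mouse's RNA, are not given in the sources used here.

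Genes with more than 1 zero count were left out, which left 18636. Counts were compared between 3 WT and 3 LKO mice with edgeR 4.0.16 in R 4.3.3 (TMM, quasi-likelihood test, two-sided, Benjamini-Hochberg over all 18636 genes, called at an adjusted p under 0.05). The biological coefficient of variation shared by genes was 0.254. The model was tested on simulated data, in which as many genes were raised as lowered and no other difference between genotypes was set. That trial does not bear on the choice of scaling. Precision is given as the SD over 3 mice or the SE of the fit. The labels do not say more of how the mice of a genotype relate, so p-values measure the spread between these mice.

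The gene length fit used offsets from a lowess trend (span 0.3) of each mouse's counts on the gene length implied by counts and FPKM. Other alternatives were DESeq2 1.42.0, limma 3.58.1 on log2(TPM + 1), other scalings and filters, a replicate block and leaving out each mouse. H2aw was classed as replication-dependent by its older symbol Hist3h2a.

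The members and lists were chosen with earlier results of these data known. Genes were named by mean CPM (12 per class), then up to 4 further called rises and 4 falls per class that did not overlap and had a mean of at least 1 CPM, and the called list genes (10 per list by mean CPM), with Pak4, 7SL and 7SK. Other genes named were chosen after their values were seen. Sequences came from GENCODE M21 and RefSeq (GRCm38.p6) tables, with gene numbers matching all 101 genes. 2 genes had no GENCODE coding transcript.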

Additional observations from a re-analysis of the deposited data

How the results depend on the processing

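Depth limits the low members, such as H2bc14 at 1 to 9 counts in LKO mice and the H2al genes at 1 to 13 counts in a mouse, and counts of near-identical copies rest on how the authors shared reads. The replicate numbers did not pair the mice (correlations of deviations of same-numbered mice -0.005, -0.039 and -0.049), and with the replicate block 3129 genes were higher and 3302 lower, against 3661 and 3815. Total counts gave 1167 genes higher and 9575 lower, 4 replication-dependent genes higher, 7 variants lower, and, in the processing, chaperone and S phase lists, 0, 0 and 0 higher and, in the first 2, 14 and 25 lower. Limma on log2(TPM + 1) gave 453 higher and 13322 lower, 1 replication-dependent gene higher and 51 lower, 10 variants lower, 0 higher in each list, and 16 processing and 29 chaperone genes lower. Gene length offsets gave 5 replication-dependent genes higher, with or without the replicate block, and 3 processing genes higher (2 with the block), and 2 were higher by DESeq2, DESeq2 size factors, upper-quartile scaling, TMM from protein-coding genes and a filter of 10 counts. When 1 mouse was left out, 0 to 2 processing genes, 1 to 4 chaperone genes were higher and 0 to 1 variants lower. Other settings kept those counts within 1.5 times. The summed levels in LKO over WT mice, from TMM-scaled counts against TPM, were 1.28 and 0.440 for replication-dependent genes, 1.08 and 0.367 for variants, 2.80 and 1.01 for H1, 1.11 and 0.382 for H2A, 0.451 and 0.162 for H2B, 0.726 and 0.217 for H3 and 1.46 and 0.515 for H4. H2B without H2bc4 was 0.550. Calling H2aw a variant, an alternative chosen after seeing the data, changed no count of called genes. Among the 30 members compared across all settings, log2 fold changes changed sign under total counts for H4c4 (-0.64), H2ac19 (-0.28), H2ac18 (-0.28), H4c6 (-0.28), H3c7 (-0.074), H3f3b (-0.81), H3f3a (-0.77), H2afz (-0.65), H1f0 (-0.58), H2afv (-0.79), H3f3c (-0.50) and H2al1k (-0.38). Among the other members tested they did so for H2bc12 (-0.84), H2bc13 (-0.011), Hist1h2bq (-0.67), H3c13 (-0.77) and H4c2 (-0.71). Under limma on TPM they did, of the 30, for the first 12, at -1.36, -0.94, -0.94, -0.93, -0.67, -1.51, -1.49, -1.32, -1.22, -1.28, -0.85 and -0.05, and for H1f4 (-0.10), H4c3 (-0.54) and H4c1 (-0.29). Under gene length offsets, without and with the replicate block, they did, of the 30, for H4c4 (-0.42 and -0.52), H2ac19 (-0.0715 and -0.0904), H2ac18 (-0.0875 and -0.11), H4c6 (-0.050 and -0.0725), H3f3a (-0.19 and -0.23), H2afz (-0.0839 and -0.0889) and H2al1k (-0.20 and -0.20), and for H3f3c with the block (-0.0137). Without 1 mouse the range was -0.19 to 0.40 for H4c4, -0.12 to 0.19 for H3f3b, -0.11 to 0.38 for H3f3a, -0.12 to 0.17 for H2afv and -0.23 to 0.82 for H2al1k. Apart from the scaling itself, the cause of these changes was not tested.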

Other observations

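Several genes of histones or their near copies fell outside the naming rule or were not protein-coding rows, and were looked at after the members. Macroh2a1, which encodes the large variant macroH2A, was counted 3553, 2940 and 3334 times in WT and 1018, 646 and 881 times in LKO mice. It fell by 1.24 on the log2 scale (SE 0.15, adjusted p 0.000542 by edgeR's quasi-likelihood test), and the genotypes did not overlap. Cenpa, which encodes the H3 variant of centromeres, was counted 153, 143 and 144 times in WT and 78, 54 and 41 times in LKO mice, and its log2 fold change of -0.61 did not pass (adjusted p 0.148). Macroh2a2 was counted at most 17 times in a mouse. H2c8, whose older symbol Hist1h4h is that of an H4 gene, was counted 1474, 1140 and 859 times in WT and 982, 924 and 1166 times in LKO mice. With TMM its log2 fold change was 0.56 (adjusted p 0.0385), with an adjusted p of up to 0.135 when 1 mouse was left out, and it was -0.32 with total counts and -0.12 with the length trend removed, neither of which passed.

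H3f3a-ps1 and H3f3a-ps2, pseudogene copies of H3f3a, had log2 fold changes of 0.12 and 0.14 and did not pass, next to 0.11 for H3f3a. LKO mouse 3 held the lowest count of the 6 mice in all 3 of them, 152, 179 and 3712. Hist1h2al, which has an H2A symbol and is no protein-coding row, was counted 61, 37 and 50 times in WT and 69, 44 and 86 times in LKO mice, with a log2 fold change of 1.13 (adjusted p 0.0191), which did not pass in at least 1 fit without a mouse (adjusted p up to 0.0724) and was 0.29 (adjusted p 0.505) with total counts.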
